A study of Mus musculus with 9 samples.

Results

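Endothelin 1 (Edn1), the endothelin receptors Ednra and Ednrb, and the adrenergic receptors Adrb1, Adra1a and Adra1b were examined in hearts of mutant and wild-type mice. Their probes were found by the accession that the array gives each probe, matched to these 6 gene symbols, which yielded 11 of the 41174 distinct probes that are not controls. Edn1 had 1 probe and each receptor had 2. The 9 heart samples came from male mice labelled C57BL/6, aged 3 to 4 months, weaned at 3 weeks, fed NIH31 diet and given no treatment. The RORasg/sg group held 4 samples from mice that carry on both alleles the staggerer mutation, which deletes a stretch of Rora and so disables the nuclear receptor RORalpha that this gene encodes. The WT group held 5 samples from wild-type mice. Total RNA of each sample, called a heart below, was read on 1 single-colour Agilent array, and the study asked how RORalpha bears on growth of the heart. The mutation is carried by every cell of the body, and RNA of the whole tissue does not tell fewer cells of a type from less RNA per cell.

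The receptors couple hormones and nerve transmitters to the heart's contraction and growth. Noradrenaline and adrenaline act on the beta-1 receptor Adrb1, which works through Gs, cyclic AMP and protein kinase A and is the main route by which sympathetic nerves raise heart rate and force. The alpha-1 receptors Adra1a and Adra1b work through Gq, phospholipase C, calcium and protein kinase C, as does the endothelin receptor Ednra, and these routes are known for hypertrophic growth of cardiomyocytes. Endothelin 1 is made largely by endothelial cells and is cut from its precursor by endothelin-converting enzymes, while Ednrb in endothelial cells clears endothelin and evokes vasodilators.

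Promoter windows of RefSeq (GRCm38.p6, 250 bases before to 50 after a gene's start) were matched for 5 of the 6 genes, 6 windows in all, and were searched on both strands for letters that nuclear receptors, AP-1 and GATA factors are known to bind. The nuclear receptor half-site AGGTCA was in 0 of the 6 windows and in 16.3% of all 32851 windows. The AP-1 letters TGANTCA were in 1 of the 6 and in 7.81% of all windows, and the GATA letters GATAAG were in 1 of the 6 and in 7.44% of all windows. The windows that held a searched motif are shown, to place it relative to the gene's start, with the motif in capitals. Edn1 (chr13:42301226-42301525, plus strand) holds the GATA letters in reverse complement, beginning at base 8 after the start. The window of the upstream start of Adra1b (chr11:43901188-43901487, minus strand) holds the AP-1 letters, beginning 198 bases before that start.
Edn1: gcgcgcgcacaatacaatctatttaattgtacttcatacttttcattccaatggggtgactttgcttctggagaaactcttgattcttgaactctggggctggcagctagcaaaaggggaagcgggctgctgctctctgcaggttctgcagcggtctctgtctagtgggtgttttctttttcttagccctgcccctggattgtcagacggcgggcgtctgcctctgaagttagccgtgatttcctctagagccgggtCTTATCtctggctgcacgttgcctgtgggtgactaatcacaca
Adra1b: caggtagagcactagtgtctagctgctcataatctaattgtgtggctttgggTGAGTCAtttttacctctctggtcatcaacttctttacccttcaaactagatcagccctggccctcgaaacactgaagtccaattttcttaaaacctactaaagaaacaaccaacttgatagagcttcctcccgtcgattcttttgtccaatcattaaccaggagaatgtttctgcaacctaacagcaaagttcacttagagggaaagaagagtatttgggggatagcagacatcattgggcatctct
A match says only that these letters are present in the window.

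Signals are given as log2 of the processed signal relative to the array's own 75th percentile, so 0 is the level of that percentile. The probes of a gene differ in brightness for the same RNA, and no order of levels between genes is therefore given. Rora itself differed by -4.13 on the log2 scale on probe A_51_P477779 (SE 0.614, n = 4 and 5) and by -5.34 on A_52_P652442 (SE 0.824), and on both probes each RORasg/sg heart lay under all WT hearts. Neither passed the threshold over all probes (limma adjusted p = 0.296 for both). Another probe, A_52_P652950, differed by -1.08 with overlapping groups. Whether any of these probes lies in the deleted stretch was not tested.

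Array brightness was uneven. The 75th percentile lay between 263 and 774 in RORasg/sg hearts and between 436 and 681 in WT hearts. RORasg/sg 2, 3 and 4 and WT 4 were under 500 and are called the 4 dimmer arrays, and RORasg/sg 1 and WT 1, 2, 3 and 5 the 5 brighter arrays. Arrays were correlated over the probes that passed the filter on dim probes and had a value on every array. With the brighter WT arrays, the median r was 0.956, 0.833, 0.769 and 0.713 for RORasg/sg 1 to 4. It was 0.874 for WT 4, against 0.972 to 0.975 for the other WT hearts. Only RORasg/sg 1 and WT 4 break the match of dim arrays with the mutant group, so brightness and genotype cannot be fully told apart. The 10 cardiomyocyte markers were well above background on all 9 arrays, and their summed scaled signal was 665 to 1231 in RORasg/sg hearts and 943 to 1160 in WT hearts. Of these markers 2 had a higher and 8 a lower mean in RORasg/sg (median -0.56, against 0.40 over all genes). None passed the threshold, and 3 were lower at an unadjusted p under 0.05, where 6.46% of all genes were lower. Their part in the receptor values was not tested.

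None of the 11 probes passed an adjusted p of 0.05 between RORasg/sg and WT hearts (limma, Benjamini-Hochberg over 36405 kept probes), where 0.00275% of all probes did. At an unadjusted p under 0.05 there were 3 of 11 (12.8% of all probes), all lower in RORasg/sg: 1 probe each of Adra1a, Adrb1 and Ednrb. For all probes, 8.31% were lower and 4.46% were higher at that level. The mean was lower in RORasg/sg for 7 of the 11, against 38.4% of all probes, whose median difference was 0.31. No probe of the 6 genes had groups that did not overlap, against 1.83% of all probes with every RORasg/sg heart below every WT heart and 1.21% with every one above. All 11 were kept by the filter on dim probes.

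**Figure D1:**
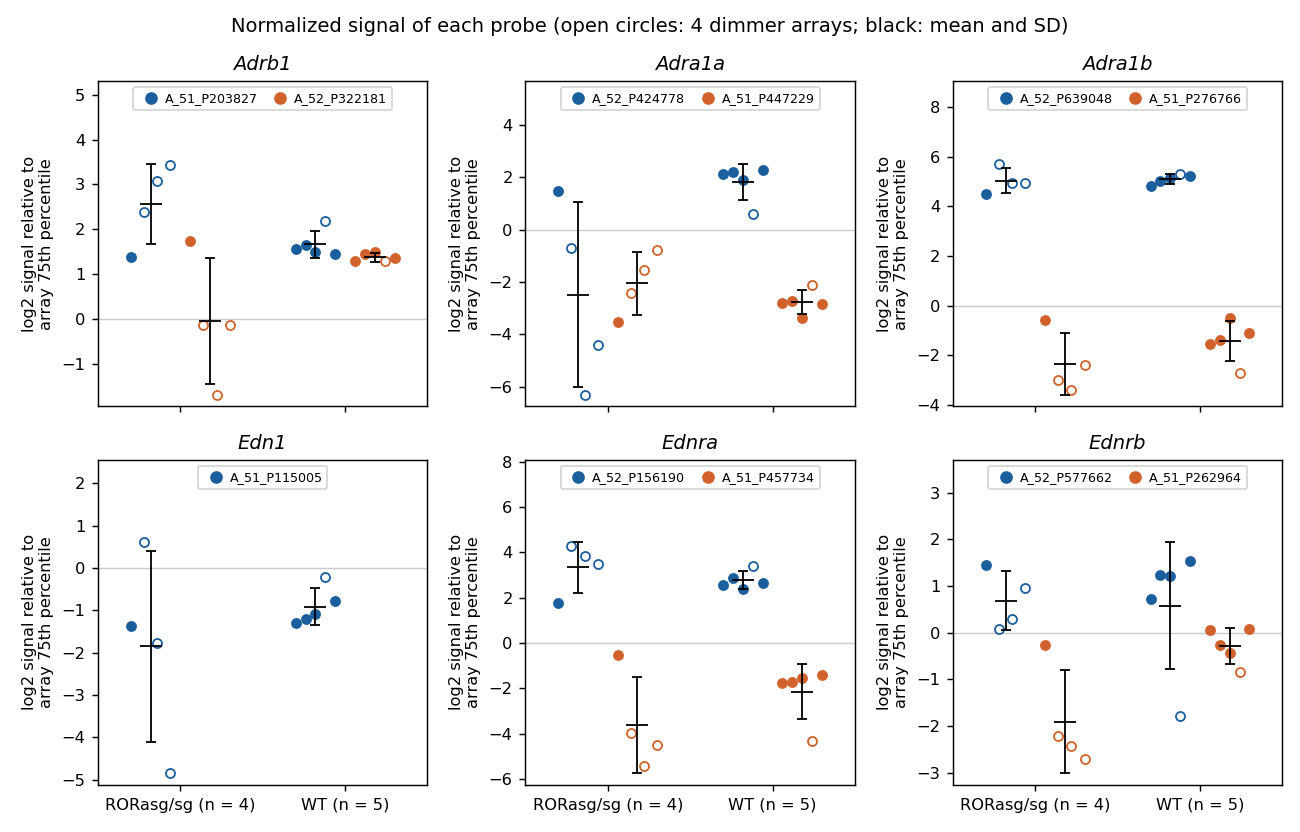
Normalized signal (log2 relative to the array's 75th percentile, y axis) of every probe of the 6 genes in each RORasg/sg heart (n = 4, left) and each WT heart (n = 5, right), with colours for probes, open circles for the 4 dimmer arrays, and black bars for mean and SD. The WT hearts lie close together for most probes, while the RORasg/sg hearts spread widely, as for Adra1a probe A_52_P424778 from -6.31 to 1.48.

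Edn1, the ligand, read -1.38, 0.61, -1.78 and -4.85 in RORasg/sg hearts 1 to 4, against -1.29, -1.20, -1.08, -0.22 and -0.78 in WT hearts 1 to 5. RORasg/sg 2 was above every WT heart, RORasg/sg 4 was far below every one, and the spot of RORasg/sg 4 was the one not well above background. The mean was -1.85 ± 2.26 in RORasg/sg and -0.91 ± 0.435 in WT hearts (SD, n = 4 and 5), a difference of -0.94 (95% interval -2.83 to 0.95, limma adjusted p = 0.521). The summed signal of 10 endothelial markers, the cells that make most endothelin 1, was 28.9 to 67.8 in RORasg/sg and 28.1 to 45.5 in WT hearts. Of these markers 4 had a higher and 6 a lower mean in RORasg/sg (median -1.09, against 0.40 over all genes). With 0 past the threshold, 1 was higher and 3 were lower at an unadjusted p under 0.05. Over all genes, 4.64% were higher and 6.46% lower at that level. The part of these markers in the Edn1 values was not tested.

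Ednra, the endothelin receptor of muscle cells, gave different pictures with its 2 probes. Probe A_52_P156190 read 1.75, 4.28, 3.84 and 3.48 in RORasg/sg hearts 1 to 4, against 2.57, 2.88, 2.37, 3.42 and 2.65 in WT hearts 1 to 5. RORasg/sg 1 was below every WT heart and the other 3 above every one, and the mean difference was 0.56 (SE 0.512, limma adjusted p = 0.518). Probe A_51_P457734 ran the other way, with RORasg/sg 1 highest of all 9 hearts. It read -0.55, -3.99, -5.45 and -4.50 in RORasg/sg hearts, against -1.75, -1.71, -1.57, -4.33 and -1.42 in WT hearts, a difference of -1.46 (SE 0.936, limma adjusted p = 0.419). WT 4 lay with RORasg/sg 2, 3 and 4 on that probe. One of its 4 RORasg/sg spots was not well above background. Smooth muscle and pericyte markers, 9 genes, summed to 101 to 202 in RORasg/sg and 99.1 to 183 in WT hearts, with 6 higher and 3 lower means.

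Ednrb, the receptor that also clears endothelin, was lower in RORasg/sg hearts on its dimmer probe without passing over all probes. Probe A_51_P262964 read -0.27, -2.21, -2.43 and -2.71 in RORasg/sg hearts, against 0.05, -0.27, -0.43, -0.85 and 0.07 in WT hearts. RORasg/sg 1 lay inside the WT range and the other 3 lay below it, and the difference was -1.62 (95% interval -2.82 to -0.43, unadjusted p = 0.012, limma adjusted p = 0.330), or 3.08-fold lower. Probe A_52_P577662 read 1.45, 0.07, 0.29 and 0.95 in RORasg/sg hearts, against 0.72, 1.23, 1.22, -1.78 and 1.54 in WT hearts. The lowest of these 9 values was WT 4, and the difference was 0.11 (95% interval -1.38 to 1.59, limma adjusted p = 0.928).

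Adrb1, the beta-1 receptor, had its 2 probes move apart in the same hearts. In processed signal, probe A_51_P203827 gave 2035, 1529, 3268 and 2828 in RORasg/sg hearts 1 to 4, against 2000.2, 2016, 1776, 1999 and 1493 in WT hearts 1 to 5. Probe A_52_P322181 gave 2602, 266, 121 and 242 in RORasg/sg hearts, against 1658, 1754, 1783, 1075 and 1395 in WT hearts. The signal of the second probe was thus under every WT value in RORasg/sg 2, 3 and 4 and over every one in RORasg/sg 1. After scaling, the first probe averaged 2.57 ± 0.893 in RORasg/sg and 1.67 ± 0.303 in WT hearts (SD, n = 4 and 5), a difference of 0.90 (95% interval -0.13 to 1.92, limma adjusted p = 0.397). The second averaged -0.048 ± 1.40 in RORasg/sg and 1.38 ± 0.094 in WT hearts, a difference of -1.43 (95% interval -2.74 to -0.11, unadjusted p = 0.036, limma adjusted p = 0.382). A statement on Adrb1 as a gene therefore depended on which probe was read.

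Adra1a, an alpha-1 receptor of cardiomyocytes, showed the largest difference of the 11 probes. Probe A_52_P424778 gave a processed signal of 2166, 180, 4.9 and 12.3 in RORasg/sg hearts 1 to 4, against 2940, 2929, 2340, 658 and 2679 in WT hearts 1 to 5. RORasg/sg 1 was above WT 4 and under the other WT hearts, RORasg/sg 2, 3 and 4 were below every WT heart, and 3 of the 4 RORasg/sg spots were well above background. On the log2 scale it averaged -2.49 ± 3.53 in RORasg/sg and 1.82 ± 0.699 in WT hearts (SD, n = 4 and 5), a difference of -4.30 (95% interval -7.11 to -1.50, unadjusted p = 0.006, limma adjusted p = 0.312). The RORasg/sg 3 spot was the one not well above background, and the difference was -3.03 without RORasg/sg 3, -5.63 without RORasg/sg 1 and -2.94 with normexp background correction. Probe A_51_P447229 of the same gene read -3.52, -2.41, -1.54 and -0.76 in RORasg/sg hearts, against -2.80, -2.75, -3.38, -2.11 and -2.85 in WT hearts. RORasg/sg 1 was the lowest of all 9 hearts there and RORasg/sg 3 and 4 were the highest, and the difference was 0.72 (SE 0.561, limma adjusted p = 0.468).

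Adra1b, the other alpha-1 receptor, had the narrowest interval of the 6 genes on its brighter probe. Probe A_52_P639048 read 4.49, 5.71, 4.94 and 4.94 in RORasg/sg hearts, against 4.80, 5.03, 5.12, 5.32 and 5.21 in WT hearts. The groups overlapped, and the difference was -0.074 (95% interval -0.74 to 0.59, limma adjusted p = 0.888). Its other probe, A_51_P276766, read -0.58, -3.01, -3.40 and -2.38 in RORasg/sg hearts, against -1.54, -1.37, -0.49, -2.69 and -1.09 in WT hearts. WT 4 was again among RORasg/sg 2, 3 and 4, and the difference was -0.90 (SE 0.636, limma adjusted p = 0.439).

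The probes of one gene were then set against each other on each array, as the log2 signal of the brighter probe minus that of the dimmer one, a quantity that no single scale factor per array can move. A shift of it shows that the probes changed unequally. The gap of Adra1a measured 5.01, 1.71, -4.77 and -3.66 in RORasg/sg hearts 1 to 4, against 4.91, 4.93, 5.27, 2.70 and 5.15 in WT hearts 1 to 5. RORasg/sg 1 lay within the WT range, WT 4 lay below the other WT hearts, and the difference of -5.02 (SE 1.78, limma adjusted p = 0.305 over 6335 genes with 2 kept probes) compared with a median absolute difference of 0.83 over those genes. For Adrb1 the gap was -0.35, 2.52, 4.75 and 3.55 in RORasg/sg hearts, against 0.27, 0.20, -0.0058, 0.89 and 0.097 in WT hearts, a difference of 2.32 (SE 0.886, limma adjusted p = 0.305). RORasg/sg 2, 3 and 4 were above every WT heart and WT 4 was the highest WT heart.

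The endothelin receptors had gaps of the same kind. For Ednra it was 2.30, 8.27, 9.29 and 7.99 in RORasg/sg hearts, against 4.32, 4.59, 3.94, 7.74 and 4.07 in WT hearts, so that WT 4 lay next to RORasg/sg 2, 3 and 4 and apart from the other WT hearts. The difference was 2.03 (SE 1.40, limma adjusted p = 0.471). For Ednrb it was 1.72, 2.29, 2.72 and 3.66 in RORasg/sg hearts, against 0.66, 1.50, 1.64, -0.94 and 1.46 in WT hearts, a difference of 1.73 (SE 0.658, limma adjusted p = 0.305). Every RORasg/sg heart was above every WT heart for Ednrb, as for 1.18% of the 6335 genes, while for 1.8% every one was below. Adra1b differed least, by 0.83 (limma adjusted p = 0.623).

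**Figure D2:**
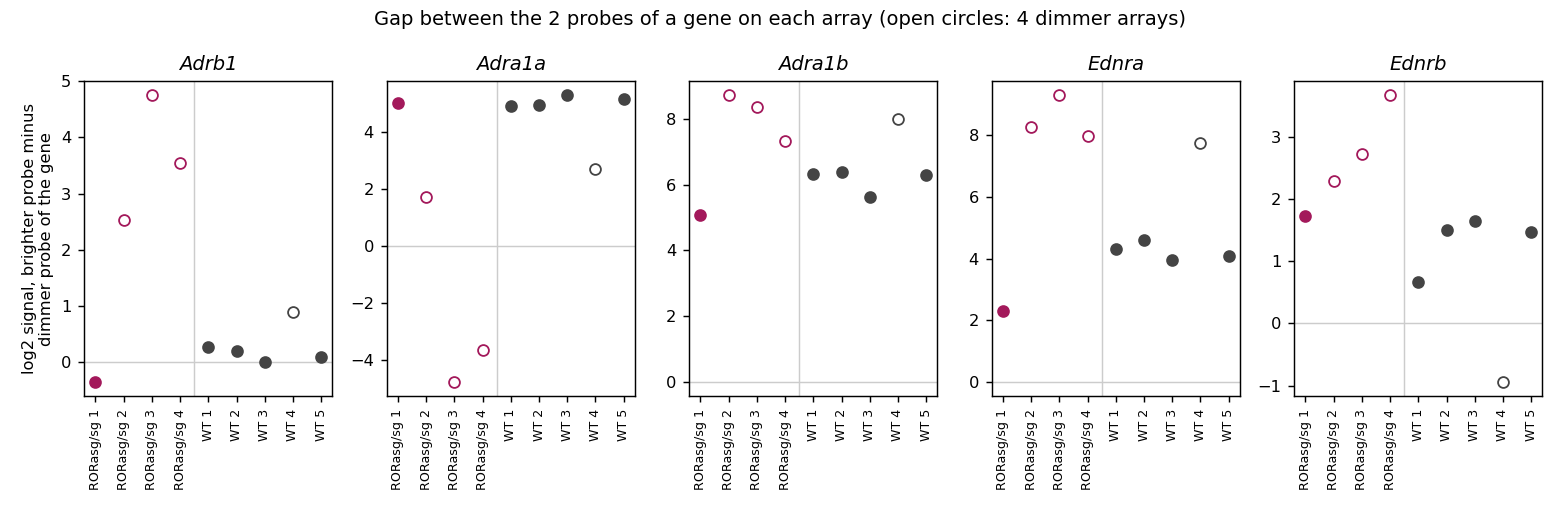
Log2 signal of the brighter probe minus that of the dimmer probe of a gene (y axis, scales differ between genes) in RORasg/sg hearts 1 to 4 (left) and WT hearts 1 to 5 (right), with open circles for the 4 dimmer arrays. RORasg/sg 1 lies near the brighter WT hearts for Adra1a (5.01 against 4.91 to 5.27), while RORasg/sg 3 and 4 read -4.77 and -3.66.

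In 4 of the 5 receptors the 2 probes differed between the groups in opposite directions (Adrb1, Adra1a, Ednra and Ednrb), against 40.4% of all 6335 genes. None of the 6335 genes passed the threshold for a shifted gap (0%, with 15.3% at an unadjusted p under 0.05). The same unequal movement ran through the arrays as wholes. Measured against the brighter WT arrays, the gap shifted over all genes by a median absolute value of 0.522, 1.38, 1.49 and 1.70 in RORasg/sg hearts 1 to 4, against 0.347, 0.295, 0.315, 1.11 and 0.321 in WT hearts 1 to 5. It was thus larger on the 4 dimmer arrays, WT 4 included, than on the 5 brighter ones. Of the 11 probes, 3 read higher on all 4 dimmer arrays than on all 5 brighter ones (1 each of Adrb1, Adra1a and Ednra) and 4 read lower on all (1 each of Adra1a, Adra1b, Ednra and Ednrb). That is 63.6% of them, against 35.6% of all kept probes (8504 higher, 4469 lower). The values are scaled by the percentile that defines the dimmer arrays, so this split depends on the scaling. In processed signal the 3 higher probes overlapped. Adrb1 gave 1529 to 3268 on dimmer and 1493 to 2035 on brighter arrays. Adra1a gave 54.9 to 155 and 60.6 to 97.7, and Ednra 2948 to 5688 and 2602 to 4737. The 4 lower probes stayed apart in processed signal. The part of array brightness in the differences between RORasg/sg and WT hearts was not tested further than by the fits given next.

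The count of calls rested on 1 heart. Without RORasg/sg 1, 7 of the 11 probes passed (limma), where 35% of all probes did. Adrb1 differed by 1.29 on A_51_P203827 (adjusted p = 0.0237) and by -2.03 on A_52_P322181 (adjusted p = 0.0117). Ednra likewise passed in both directions, by 1.09 on A_52_P156190 (adjusted p = 0.0326) and by -2.49 on A_51_P457734 (adjusted p = 0.0259). Adra1a passed on A_52_P424778 at -5.63 (adjusted p = 0.00896), Ednrb on A_51_P262964 at -2.17 (adjusted p = 0.00444) and Adra1b on A_51_P276766 at -1.49 (adjusted p = 0.0449). The 3 RORasg/sg hearts left were all dimmer arrays. With limma's array weights over all 9 hearts, 8 of the 11 passed, as did 49.6% of all probes. Among the 5 brighter arrays, where RORasg/sg 1 is the only RORasg/sg heart and is assumed to vary like the WT hearts, 0 of 11 probes passed and 4.01% of all probes did. There Adrb1 differed by -0.14 on A_51_P203827 and 0.35 on A_52_P322181, the opposite of the signs over all 9 arrays. Ednra also changed sign on both probes, at -0.87 on A_52_P156190 and 1.07 on A_51_P457734. Adra1a stayed negative on A_52_P424778, at -0.64, and Ednrb on A_51_P262964, at -0.13.

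**Figure D3:**
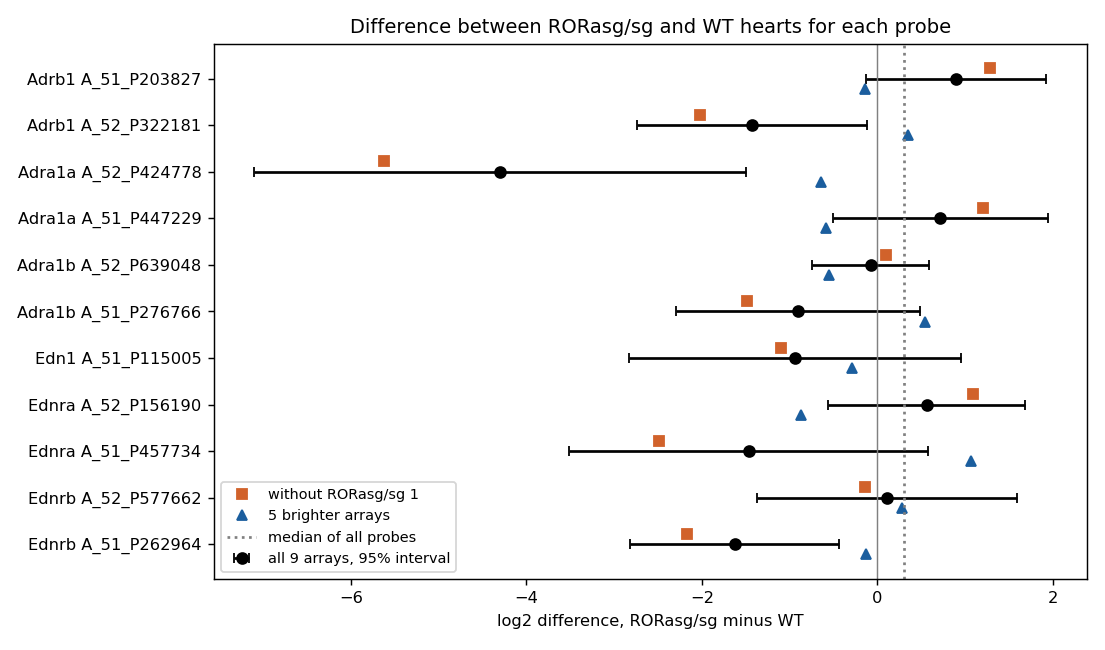
Log2 difference, RORasg/sg minus WT (x axis), of each probe over all 9 arrays (black, with 95% interval), without RORasg/sg 1 (squares) and over the 5 brighter arrays (triangles), with the median of all probes dotted at 0.31. Leaving out RORasg/sg 1 moved most probes away from 0, Adra1a A_52_P424778 to -5.63, while the brighter arrays put it at -0.64.

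Slides gave values of the same probes within a batch. On slide 1 (RORasg/sg 1 and 2, WT 1 and 2) Adra1a probe A_52_P424778 differed by -1.76, and on slide 2 (RORasg/sg 3 and 4, WT 3 and 4) by -6.61. Ednrb probe A_51_P262964 differed by -1.14 on slide 1 and -1.93 on slide 2, and Adrb1 probe A_52_P322181 by -0.56 and -2.30. These 3 kept their sign in both slides, but they were not alone in this. Adrb1 probe A_51_P203827 stayed positive (0.29 and 1.40), as did Ednra probe A_52_P156190 (0.29 and 0.77). Ednra probe A_51_P457734 (-0.53 and -2.03) and Adra1b probe A_51_P276766 (-0.34 and -1.30) stayed negative. Adra1a A_51_P447229, Adra1b A_52_P639048 and Ednrb A_52_P577662 differed in sign between the slides. Edn1 differed by 0.86 on slide 1 and -2.67 on slide 2. No probe of the 6 genes passed within either slide.

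Genes of the same pathways were counted by their brightest kept probe, and 0 of any list passed, where 0.0036% of 27775 genes did. At an unadjusted p under 0.05 there were 11.1% of all genes (6.46% lower, 4.64% higher), and the median difference of all genes was 0.40. That median of all genes was itself -0.35 among the 5 brighter arrays and 0.50 among the 4 dimmer arrays. With brightness in the fit it was 0.0084, on slide 1 0.053 and on slide 2 0.68. The 6 genes described here had 3 higher and 3 lower means, with a median of 0.017. Among 7 other endothelin ligands and proteases, 5 were higher and 2 lower, with a median of 0.60, which was -0.90 among the 5 brighter arrays, -0.19 with brightness in the fit, -0.072 on slide 1 and -0.013 among the 4 dimmer arrays. Mme, neprilysin, a protease that degrades peptides such as endothelin, differed by -4.76 (SE 0.965, limma adjusted p = 0.312), each RORasg/sg heart under all WT hearts, with 1 of 4 RORasg/sg spots well above background, yet its other kept probe differed by -0.37. The endothelin-converting enzymes Ece1 and Ece2 differed by 0.60 and 0.82, and their relative Ecel1 by 1.03. Among the 5 brighter arrays all 3 were below 0 (-0.95, -0.57 and -0.28), where the median of all genes was -0.35.

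Among other adrenergic receptors, Adra1d, the remaining alpha-1 receptor, differed by 1.25, and the alpha-2 receptors Adra2b and Adra2a by 0.83 and 0.51. Among the 5 brighter arrays these were -0.72 for Adra1d, -0.59 for Adra2b and 0.37 for Adra2a. Among 10 genes of catecholamine synthesis and clearance, 8 were higher and 2 lower (median 0.78). That median was -0.84 among the 5 brighter arrays, -0.050 with brightness in the fit and -0.065 on slide 1. Over all genes the median was -0.35, 0.0084 and 0.053 in the same fits. Slc22a3, a transporter that takes up catecholamines outside neurons, differed by -3.38 (SE 0.565, limma adjusted p = 0.300), with each RORasg/sg heart under all WT hearts and 1 of 4 RORasg/sg spots well above background. Th, which makes the precursor of dopamine, Pnmt, which makes adrenaline, and Slc6a2, the noradrenaline transporter of nerve endings, differed by 0.99, 0.83 and 0.95, and by -0.52, 0.064 and -0.44 among the 5 brighter arrays. Schwann and neuronal markers, of which Th is one, summed to 2.93 to 24.6 in RORasg/sg and 3.79 to 11.8 in WT hearts. Of these, 8 of 9 were higher in mean (median 0.73), against 18487 of 27775 genes (median 0.40). The sums were 10.9, 24.6 and 21.8 in RORasg/sg 2, 3 and 4 and 11.8 in WT 4. On the 5 brighter arrays none exceeded 5.99, and RORasg/sg 1 was the lowest of all 9 hearts. The part of array brightness in these sums was not tested.

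Downstream of Adrb1, 31 genes of Gs and cyclic AMP signalling had 11 higher and 20 lower means (median -0.34). Of these, 2 higher and 6 lower ones had an unadjusted p under 0.05, against 4.64% and 6.46% of all genes. The median was 0.024 among the 5 brighter arrays, 0.0098 with brightness in the fit, -0.010 on slide 1 and -0.059 without RORasg/sg 4. Over all genes the median was -0.35, 0.0084, 0.053 and 0.27 in the same fits. In other fits the Gs list lay further below 0. Its median was -0.91 with no scaling, -0.89 with array weights, -0.79 on slide 2 and -0.51 without RORasg/sg 1. Those of all genes were -0.17, 0.68, 0.68 and 0.68. Creb1, a transcription factor that protein kinase A phosphorylates, differed by -1.73, with each RORasg/sg heart under all WT hearts, and its other 2 probes differed by -1.37 and -0.80. Pde3a, which breaks down cyclic AMP, differed by -2.89 and by -1.37 on its other probe. Akap1 and Akap12, which anchor protein kinase A, differed by -2.35 and 1.24, and the other 2 probes of Akap1 by 0.56 and 0.18. Among the 5 brighter arrays Pde3a was at 0.27 and Akap12 at -0.31, with the sign turned.

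Downstream of the alpha-1 and endothelin receptors, 38 measured genes of Gq and phospholipase C signalling had 17 higher and 21 lower means (median -0.14). Of these, 0 higher and 6 lower ones had an unadjusted p under 0.05, against 4.64% and 6.46% of all genes. The median was 0.38 among the 4 dimmer arrays, 0.021 on slide 1, 0.016 on slide 2, and 0.036 and 0.090 without RORasg/sg 2 and 4. All genes had medians of 0.50, 0.053, 0.68, 0.32 and 0.27 in the same fits, each above that of the list. With no scaling the Gq list had a median of -0.71 and all genes -0.17. Nfatc3, a transcription factor that calcineurin activates, differed by -1.91 and by -1.62 on its other probe. Ppp3ca, a catalytic subunit of calcineurin, differed by -1.26, Prkcd, a protein kinase C, by -2.27, and Itpr2, a calcium release channel, by -2.19. The other probe of Prkcd differed by -0.12, and the other 4 of Itpr2 by 0.44, -0.69, 0.08 and -0.65. Among the 5 brighter arrays Nfatc3 was at -0.0035 and Prkcd at 0.042, while Ppp3ca was at -0.67 and Itpr2 at -0.72. The 25 receptor kinases, arrestins, RGS proteins and G beta-gamma subunits had 16 higher and 9 lower means (median 0.22), among them Rgs10 at 1.04, Rgs14 at 1.01, Gng5 at 1.20 and Rgs5 at -2.84. Among the 5 brighter arrays their median was -0.099, with Rgs10 at -0.25, Rgs14 at -0.099, Gng5 at -0.80 and Rgs5 at 0.57, each with the sign turned. The median of all genes was -0.35 there. The list median was also below 0 with brightness in the fit (-0.029), on slide 2 (-0.015) and without RORasg/sg 2 (-0.032). All genes had medians of 0.0084, 0.68 and 0.32 in those fits. With no scaling between arrays the list median was -0.35, where the median of all genes was -0.17. Rgs5, also a marker of pericytes, was at -0.71 on slide 1 and -4.61 on slide 2.

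**Figure D4:**
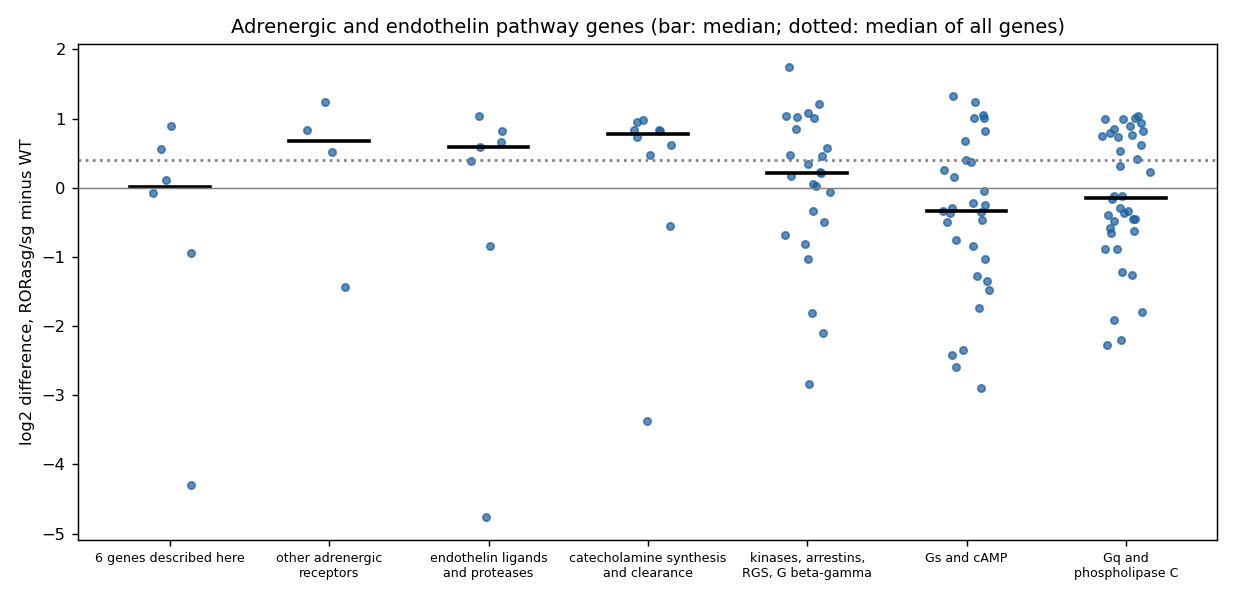
Log2 difference, RORasg/sg minus WT (y axis), of each measured gene (1 point, by its brightest kept probe) in the 6 genes and 6 pathway lists, with list medians as bars and the median of all genes dotted at 0.40. The Gs and cyclic AMP list has its median at -0.34 and 20 of 31 genes below 0, against 33.4% of all genes. Among the 5 brighter arrays its median is 0.024, and that of all genes is -0.35.

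Among the 5 brighter arrays 10 of the 115 pathway genes tested passed (8.7%, against 4.34% of all genes), each resting on RORasg/sg 1 alone. Their values are set beside those without RORasg/sg 1, where 44 of 115 passed (38.3%, against 35.8% of all genes), a fit that shares WT hearts 1, 2, 3 and 5. Slc22a3 was called at -3.05 among the brighter arrays and at -3.61 without RORasg/sg 1. Gnas, the Gs alpha subunit, was called at 1.32 among the brighter arrays and at -3.66 without RORasg/sg 1. Grk2, the kinase that desensitises beta receptors, was called at -1.27 and 1.85 in that order, and Maob, which degrades monoamines, at -1.69 and 1.25. Gng5, a G gamma subunit, was called at -0.80 and 1.95, and Prkce, a protein kinase C, at -1.29 and 1.57. The other 4 were Adcy6 (1.46), Furin (-0.90), Gnai2 (1.58) and Grk3 (-0.94), which did not pass without RORasg/sg 1 (0.47, 0.89, -1.10 and 0.56).

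Patterns over the 9 arrays were compared between the brightest probe of each of the 6 genes and 17832 other named genes, as Pearson's r, a description in which all genes share the arrays and their brightness. Close to Adra1a were Ier2 and Tbx20 (r = 0.998 and 0.993). Closest to Adrb1 were Olfr225, Cbln1 and AF067063 (0.996, 0.994 and 0.993), and 794 genes exceeded 0.95. Ednra was closest to Abl2, Cir1 and Akr1b8 (0.994, 0.993 and 0.993), with 696 genes above 0.95, and Edn1 to Mmrn2, Scamp1 and Anxa5 (0.990, 0.989 and 0.989). Adra1b and Ednrb had far fewer genes above 0.95, 8 and 6. Tbc1d5, Xirp2 and Gpbp1 were closest to Adra1b (0.965, 0.965 and 0.964), and Ddx18, Ythdf3 and Srsf10 to Ednrb (0.977, 0.976 and 0.965).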

How the data were processed

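Per the labels' protocols, 70 ng of total RNA per heart was amplified (NuGEN Ovation Pico WTA) and 5 ug of the product was labelled with Cy3. Per the file headers, the software was Feature Extraction 12.0.0.7 with protocol GE1_1200_Jun14, on array design 014868 with a grid of build mm9. The deposited intensity of a spot is linear, with background subtracted and without scaling from array to array, and the deposited value table repeats it (largest difference 0).

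Outlier spots were dropped (758 over 9 arrays) and spots of a probe averaged, and log2 values were set relative to the 75th percentile of their array. A probe was kept if well above background on 4 or more arrays (36405 of 41174). Accessions were named through RefSeq, assembly GRCm38.p6 (28223 probes), which is not the grid build, so coordinates are given for the printed windows only. The main comparison used limma (version 3.58.1: lmFit, eBayes with trend, Benjamini-Hochberg over all kept probes, threshold 0.05) with R 4.3.3 and data.table (version 1.17.8). Figures come from matplotlib 3.10.9 (Python 3.11.15). The limma fit was tried on simulated arrays, all drawn with the spread of the WT hearts. That setting lacks the wider spread of the RORasg/sg hearts and the uneven brightness of the real arrays. Precision is limited by how few arrays there are. The labels number the samples without stating that each came from a separate animal, and p-values measure the spread between these samples.

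The 6 genes, the lists and the alternatives were chosen with earlier results of these data known. Named are every probe of the 6 genes and of Rora, the 4 genes of each pathway list with the smallest p, and the 3 genes most like each of the 6 in pattern. A few genes picked by these rules are not reported here. Genes called among the 5 brighter arrays were named after their values were seen. Replicate numbers do not pair the hearts: the deviations of same-numbered hearts correlated at 0.075, -0.010, -0.34 and 0.40. The alternatives were other scalings, normexp (offset 50), other filters and probe rules, slide, replicate number and brightness in the fit, array weights, other eBayes settings, single slides, brighter or dimmer arrays alone, and leaving out each array. The fit on probe pairs was added after the data were seen. Adrb3, Gna12, Hbb-b1 and Hbb-bs were not matched to a probe and were not analysed here.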

Additional observations from a re-analysis of the deposited data

Results flagged for a closer look

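In scaled signal, a WT heart stood far from the other 4 on 4 probes, and it was WT 4 each time. On Adrb1 probe A_51_P203827, WT 4 was the highest WT heart at 2.20. In processed signal WT 4 gave 1999 on that probe, within the 1493 to 2016 of the other WT hearts. Scaled, it was the lowest on Adra1a probe A_52_P424778 at 0.59, on Ednra probe A_51_P457734 at -4.33 and on Ednrb probe A_52_P577662 at -1.78. Of 22 groups examined these were 4, where chance flags about 1 in 20 if the groups are independent. They are not, because the same hearts were examined on every probe and all 4 flags came from WT 4. No excess over chance can therefore be read from this count. WT 4 is the single WT heart among the 4 dimmer arrays. On the Adrb1, Adra1a and Ednra probes it lay between the other WT hearts and at least 1 of RORasg/sg 2, 3 and 4, and on the Ednrb probe it lay below all 4 RORasg/sg hearts.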

How the results depend on the processing

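Over all probes, 1 passed. With no scaling there were 4, with array weights 18052 and among the 5 brighter arrays 1460 (4.01%). There were 0 with normexp, with the filter on all 9 arrays, with slide, replicate number or brightness in the fit, on slide 1 or slide 2 alone, on the 4 dimmer arrays, or with a gene's probes averaged. Array weights gave 8 of the 11 probes (49.6% of all) and 68 of 115 pathway genes (49.8% of all genes), and the 5 brighter arrays gave 10 of 115 (4.34% of all genes). Leaving out 1 array gave 0 to 12740 probes, 0 to 7 of the 11, 0 to 44 of 115 pathway genes and 0 to 1426 shifted probe pairs, the highest without RORasg/sg 1 in each (35% of all probes and 35.8% of all genes). The replicate block, which does not follow a real pairing, gave 0 of 36405 probes and 0 of the 11.

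Of 295 differences of the 11 probes under an alternative, 257 kept their direction and did not pass, 15 passed in the same direction and 23 changed sign. The sign of a difference turned as follows, and the cause was not tested. With no scaling, Ednra A_52_P156190 was -0.0090 and Ednrb A_52_P577662 -0.46. With brightness in the fit, Adra1a A_51_P447229 was -0.063, Ednra A_52_P156190 -0.22 and Ednra A_51_P457734 0.095. With array weights, Ednrb A_52_P577662 was -0.67. On slide 1, Adra1a A_51_P447229 was -0.20, Adra1b A_52_P639048 0.19, Edn1 0.86 and Ednrb A_52_P577662 -0.21. Among the 5 brighter arrays, Adrb1 was -0.14 (A_51_P203827) and 0.35 (A_52_P322181), Adra1a A_51_P447229 -0.58, Adra1b A_51_P276766 0.55, and Ednra -0.87 (A_52_P156190) and 1.07 (A_51_P457734). With probes averaged, Adrb1 was -0.26, Ednra -0.45 and Ednrb -0.76. Leaving out 1 array put Ednrb A_52_P577662 between -0.48 and 0.35, Adra1b A_52_P639048 between -0.30 and 0.10, and Edn1 between -1.76 and 0.061. With 4 RORasg/sg hearts, 3 of them dim, small differences were not detectable, and large ones could also fail to pass. Rora probe A_52_P652442 at -5.34 and Adra1a probe A_52_P424778 at -4.30 did not pass (limma adjusted p = 0.296 and 0.312).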

Other observations

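Markers of other cells were measured in the same hearts, as summed scaled signal, and none of their genes passed. Fibroblast markers (9 genes) summed to 93.7 to 227 in RORasg/sg and 65.1 to 106 in WT hearts. Atrial cardiomyocyte markers (4 genes) summed to 4.97 to 9.90 in RORasg/sg and 7.28 to 23.5 in WT hearts. Macrophage and leukocyte markers (9 genes) summed to 14.9 to 39.2 in RORasg/sg and 13.7 to 32.3 in WT hearts, and erythroid markers (4 genes) to 27.3 to 65.3 in RORasg/sg and 24.6 to 57.7 in WT hearts. Adipocyte markers (6 genes) summed to 1.06 to 1.91 in RORasg/sg and 0.678 to 3.30 in WT hearts. Lung epithelial markers (3 kept genes of 4) summed to 0.269 to 1.57 in RORasg/sg and 0.193 to 0.429 in WT hearts. The ranges of the groups overlapped for each of these lists. Fibroblast, macrophage and leukocyte, and lung epithelial sums were higher on every dimmer array than on every brighter one. WT 4 read 106, 32.3 and 0.429 for these, and RORasg/sg 1 read 93.7, 14.9 and 0.269. The part of array brightness was not tested. Higher and lower means numbered 5 and 4 for fibroblast, 3 and 1 for atrial, and 5 and 4 for macrophage and leukocyte markers. They numbered 2 and 2 for erythroid, 4 and 2 for adipocyte, and 3 and 0 for lung epithelial markers.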
